A study of Oryzias melastigma with 6 samples.

Results

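The testis of mature male marine medaka (Oryzias melastigma, a small saltwater fish) was set against the brain and the liver of males, with 1 small RNA library each, 3 of the 6 libraries of the series. The other 3 are ovary, female brain and female liver. Each library was built from pooled tissue of breeding fish, and the labels used here give no strain, age, treatment or number of fish per pool. Every sequence of 20 to 23 nt listed for a library carried a level, taken here as RPM, its reads scaled to the library's total. The comparison covered 105 miRNA family arms, formed by 971 of the 1339 sequences listed in the 3 male libraries; testis alone listed 52 family arms and 170 assigned sequences. A family arm was called testis-high when testis lay above both male somatic libraries and testis-low when it lay below both, on RPM and again on the share of each library's summed miRNA RPM. With 1 library per organ no test between organs was possible, so ratios carry a 95% exact interval for counting error only. In pooled bulk tissue, fewer cells of a type and less RNA per cell cannot be told apart.

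miRNAs are short RNAs that guide Argonaute proteins to messenger RNAs, mostly through pairing of the seed, bases 2 to 8 from the 5′ end. Each precursor can give an arm from its 5′ side (5p) and one from its 3′ side (3p). Small differences at the ends of the same miRNA are called isoforms, and a shift of the 5′ end changes the seed. A fish testis holds germ cells in cysts enclosed by Sertoli cells, with Leydig cells, contractile peritubular cells and vessels around them, and gonadal miR-202 is known from fish, birds and mammals.

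The leading sequences of arms that were above both somatic libraries in testis, and of arms low in it, are printed first, as listed in the deposited files with T for U and with the seed of each printed sequence in capitals. The miR-202-5p forms show that part of this arm starts 1 base earlier and so carries another seed. Those of let-7-5p, miR-216-5p and miR-7-5p belong to arms that were above both as shares of miRNA but lay between on RPM.
miR-202-5p, leading form: tTCCTATGcatatacttcttt
miR-202-5p, longer form: tTCCTATGcatatacttctttga
miR-202-5p, earlier start: tTTCCTATgcatatacttcttt
miR-202-3p: aAAGAGGCataaggcatggga
miR-143-3p: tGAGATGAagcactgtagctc
miR-145-5p: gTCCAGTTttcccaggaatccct
miR-196-5p: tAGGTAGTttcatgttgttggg
let-7-5p: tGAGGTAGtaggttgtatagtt
miR-216-5p: tAATCTCTgcaggcaactgtg
miR-7-5p: tGGAAGACtagtgattttgttg
The next sequences led families that were low in testis, and those of miR-101-3p, miR-103-3p and miR-144-3p were not listed there at all. For miR-101-3p and miR-103-3p the printed form led in male brain but not in male liver.
miR-101-3p: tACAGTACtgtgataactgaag
miR-103-3p: aGCAGCATtgtacagggctatg
miR-144-3p: cTACAGTAtagatgatgtact
miR-451-5p: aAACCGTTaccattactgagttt
miR-221-3p: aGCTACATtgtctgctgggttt

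The libraries differed in how much miRNA they listed. The miRNA sequences summed to 15257 RPM in testis (1.53% of reads), 208337 RPM in male brain (20.8%) and 19922 RPM in male liver (1.99%), so that the sum in male brain was 13.7 times, and that in male liver 1.31 times, the sum in testis. The implied depth was 25.5 M reads in testis, 20.2 M in male brain and 18.7 M in male liver (M, mega). The lowest level listed was 10.03 RPM in testis (256 reads), 6.03 RPM in male brain and 6.0 RPM in male liver. An unlisted sequence therefore lies under the minimum of its file and is not shown to be absent, and a family unlisted in testis and in a somatic library was left undecided. All "at least" folds below divide the leading sequence of the family, in the library that listed it, by that minimum. Family levels sum listed sequences only, so isoforms under the minimum of a file are missing from them. Counting intervals of family ratios do not cover this, which weighs most on arms near the minimum of a file, that of testis above all.

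On deposited RPM 6 of 105 family arms were testis-high (5.71%), 35 were testis-low (33.3%), 19 lay between the somatic libraries and 45 were undecided. The 6 were miR-214-3p, miR-196-5p, the pair miR-143-3p and miR-145-5p, and both arms of miR-202. As shares of miRNA, 20 family arms were testis-high (19%) and 13 were testis-low (12.4%), with 23 between and 49 undecided. The 6 stayed testis-high on both scales, 13 family arms were testis-low on both, and 2 (miR-21-5p and miR-22-3p) went from below both on RPM to above both as shares. A further 12 family arms went from between to testis-high. Of the 27 testis-low arms that were listed in testis, 23 had counting intervals off 1 against both somatic libraries. Among the testis-high arms, so did miR-143-3p and miR-145-5p, and miR-214-3p did against male brain. The miR-202 arms and miR-196-5p were unlisted in both somatic libraries, so they have no interval and their calls rest on the minima. Over the 41 arms listed in all 3 libraries, the median log2 ratio of testis was -2.82 to male brain and -0.53 to male liver on RPM, and 0.95 and -0.14 as shares. With a difference of at least 2-fold asked for, RPM gave 6 testis-high (5.71%) and 16 testis-low (15.2%), and shares gave 11 (10.5%) and 5 (4.76%). At 4-fold, RPM gave 4 testis-high (3.81%) and 8 testis-low (7.62%), and shares gave 8 (7.62%) and 1 (0.952%).

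**Figure D1:**
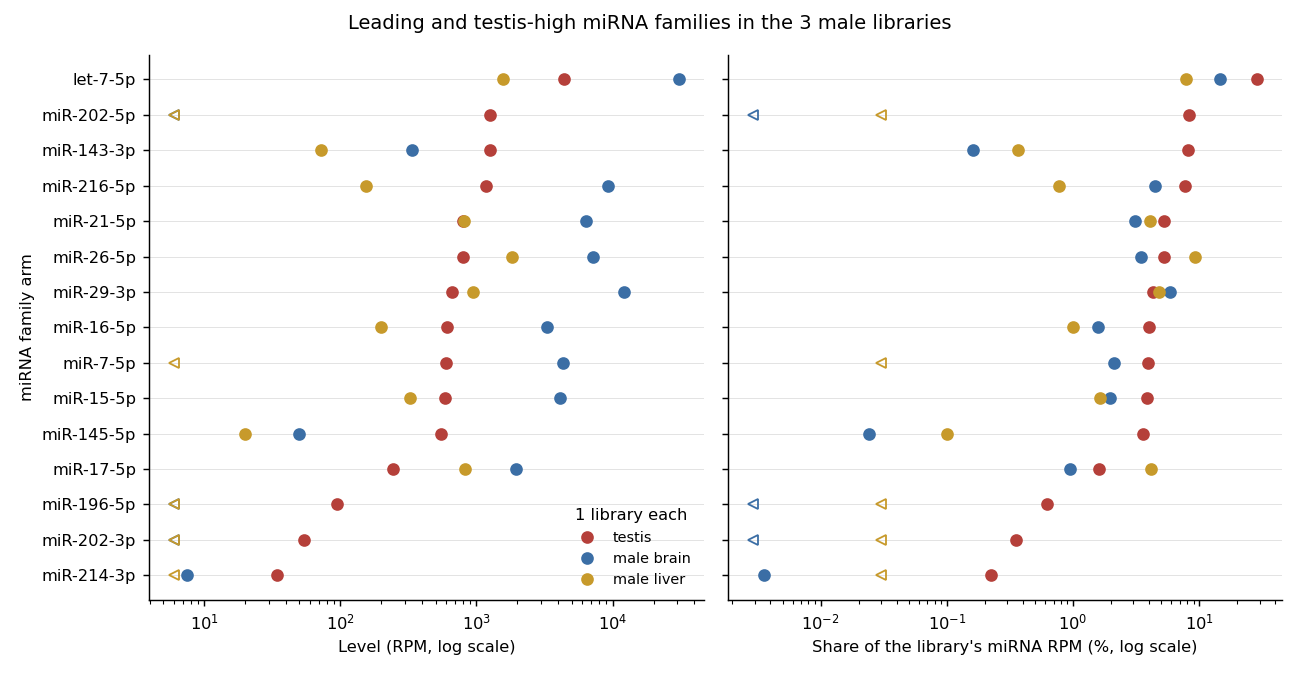
Level in RPM (left) and share of the library's miRNA RPM in percent (right), both on log axes, of the 12 family arms highest in testis and of 3 further testis-high arms, in testis, male brain and male liver (1 library each). Hollow triangles mark unlisted arms, drawn at the minimum of that library; testis lies to the right of both somatic libraries for both miR-202 arms and for miR-214-3p, miR-196-5p, miR-145-5p and miR-143-3p on both axes.

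miR-202, the arm pair best known from vertebrate gonads, set testis apart most. miR-202-5p stood at 1256 RPM in testis, the second highest family there, and was unlisted in male brain and male liver. That put testis at least 90.5-fold above male brain and at least 90.9-fold above male liver. Its partner arm miR-202-3p stood at 53.8 RPM in testis and was also unlisted in both, at least 6.21-fold above male brain and 6.24-fold above male liver. Testis listed 8 isoforms of the 5p arm and neither somatic library listed any. The leading form printed above held 546 RPM, the longer form 317 RPM and the earlier start 159 RPM. The testis minimum exceeds those of both somatic libraries, so an isoform listed in testis alone is above both by the minima. Starts at the first base of the leading form made up 82.1% of the arm (95% exact interval 81.7 to 82.5), the rest being shifted and thus carrying other seeds.

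miR-143 and miR-145, made from 1 transcript and abundant in smooth muscle and other contractile stromal cells, were also testis-high on both scales. miR-143-3p held 1249 RPM in testis, 336 RPM in male brain and 72.4 RPM in male liver. Testis was 3.72-fold above male brain (95% exact interval 3.62 to 3.82) and 17.3-fold above male liver (16.3 to 18.2). miR-145-5p held 548 RPM in testis, 49.9 RPM in male brain and 19.99 RPM in male liver, with testis 11.0-fold (10.3 to 11.7) and 27.4-fold (24.7 to 30.5) higher. As shares of miRNA the gap to male brain widened to 50.8-fold for miR-143-3p and 150-fold for miR-145-5p. Every listed isoform of the pair, 7 of miR-143-3p and 4 of miR-145-5p, was above both somatic libraries. Male brain listed 4 and 3 of these isoforms and male liver 3 and 2. For the others that call follows from the minima. The isoforms are the parts of the arm sums, so their calls are no separate support for the call of the arm. Over all 971 sequences, 3.09% were above both on RPM. Of the endothelial arms, miR-126-3p held 71.1 RPM in testis, 332 RPM in male brain and 102 RPM in male liver, testis-low on RPM. As a share it lay between, 2.93-fold above male brain (95% exact interval 2.78 to 3.08) and 0.912 times male liver (0.855 to 0.973). miR-221-3p, at 16.9, 2647 and 98.2 RPM, was testis-low on both scales. Of the 8 arms in the list for smooth muscle and endothelium, 2 were testis-high on either scale, while 3 were testis-low on RPM and 1 as a share. Over all 105 arms, 5.71% were testis-high and 33.3% testis-low on RPM, and 19% and 12.4% as shares, and the counts for the lists are given beside these. That list's median log2 share ratio of testis to male brain was 2.33 over 5 arms listed in both, beside 0.92 over all 48 such arms, and to male liver it was -0.05 over 5 arms, beside -0.19 over all 42.

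Of the miRNAs that lie in Hox gene clusters, miR-196-5p stood at 94.5 RPM in testis and was unlisted in both somatic libraries, at least 11.4-fold above male brain and 11.5-fold above male liver. miR-10-5p held 77.0 RPM in testis, 366 RPM in male brain and 6.64 RPM in male liver. It lay between the somatic libraries on RPM and above both as a share, at 0.504% against 0.176% and 0.0334%. A smaller part of miR-10-5p began at the first base of its leading sequence in testis, 66.3% (95% exact interval 64.2 to 68.4), than in male brain, 82.1% (81.2 to 83.0), and the rest began elsewhere.

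Among mesenchymal arms, miR-214-3p, known from connective tissue and skeletal progenitors, held 34.2 RPM in testis and 7.41 RPM in male brain and was unlisted in male liver. The gap to male brain was 4.61-fold (95% exact interval 3.88 to 5.53). Testis listed 2 sequences of this arm, and male brain listed only the 1 that held 68.8% of the arm in testis, near the male brain minimum of 6.03 RPM. For that sequence alone the gap is smaller than the fold given. miR-199-3p, made from the same transcript as miR-214 in mammals, lay between, with 174 RPM in testis, 130 RPM in male brain and 399 RPM in male liver. miR-29-3p, which targets collagen messages in mammals, was testis-low on both scales, with 655 RPM against 12220 RPM in male brain and 946 RPM in male liver. The sequence leading miR-29-3p in testis, with 81.6% of the arm there, was by itself below both on RPM but above both as a share. miR-26-5p held 796, 7203 and 1831 RPM and was testis-low on RPM alone. All 6 arms of the list were listed in testis, with 1 testis-high and 3 testis-low on RPM (5.71% and 33.3% of all arms) and 2 and 1 as shares (19% and 12.4% of all arms).

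let-7-5p, a family tied to differentiation and developmental timing, led the testis library. It held 4385 RPM in testis, 30529 RPM in male brain and 1571 RPM in male liver, which was 28.7%, 14.7% and 7.88% of each library's miRNA. In RPM testis was 6.96-fold below male brain (95% exact interval 6.92 to 7.01) and 2.79-fold above male liver (2.76 to 2.83), and as a share it was the highest of the 3 libraries. The sequence printed above held by itself 42.5% of the family in testis, 23.1% in male brain and 24.2% in male liver. With the sequences clustered to it at up to 2 mismatches, it held 95.5%, 74.6% and 77.8%, and in ovary 93.2%. Such a cluster, called a member here, can join paralogues that differ by at most 2 bases, so it is not shown to be 1 gene product. Another member, shown next with its seed in capitals because it shares that seed and differs downstream, held 1.23% of the family in testis, 17.9% in male brain and 5.17% in male liver.
let-7-5p, brain-rich member: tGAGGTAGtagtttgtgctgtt
In RPM that member stood at 53.8 in testis, 5460 in male brain and 81.2 in male liver. The companions of let-7 in vertebrate gene clusters, miR-99-5p and miR-125-5p, held 84.4 and 76.6 RPM in testis, against 1643 and 4728 RPM in male brain and 86.9 and 29.5 RPM in male liver. Neither was testis-high on either scale.

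**Figure D2:**
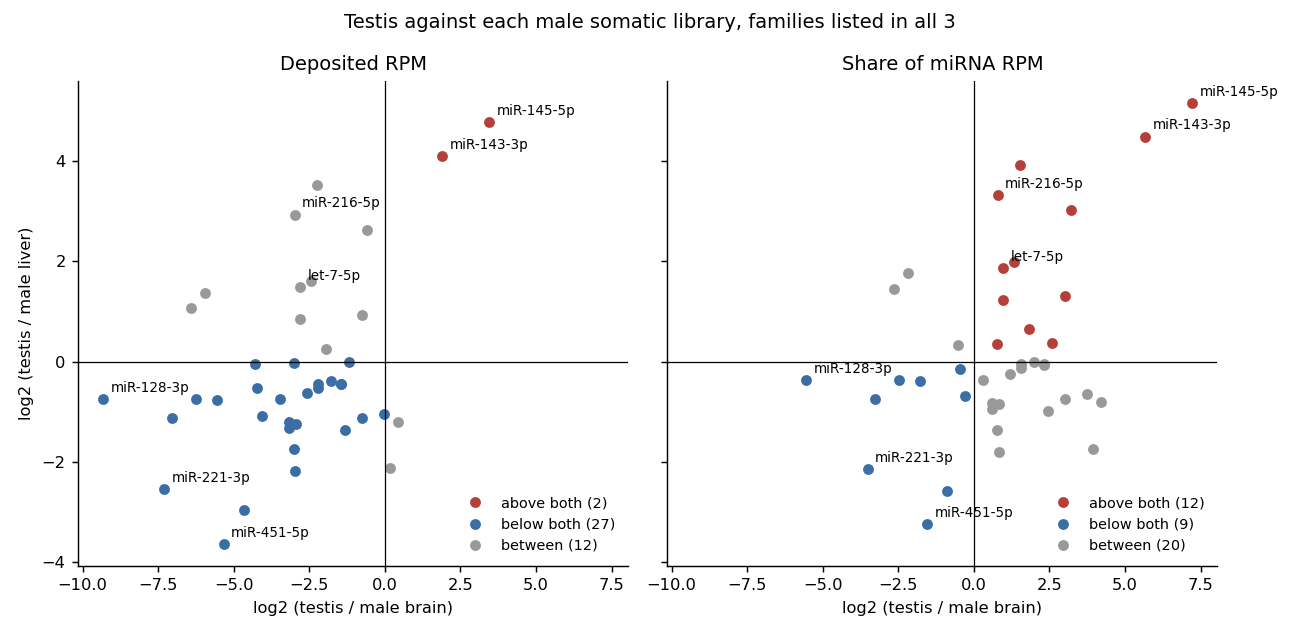
Log2 ratio of testis to male brain (x) against log2 ratio of testis to male liver (y) for the 41 family arms listed in all 3 male libraries, on deposited RPM (left) and on shares of miRNA RPM (right); each point is 1 family arm, coloured by its call. On RPM 37 of 41 arms lie left of 0, and as shares 29 of 41 lie right of it, while miR-143-3p and miR-145-5p sit at the upper right in both panels.

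A group of arms known from pancreas held 13% of testis miRNA, 8.12% of male brain miRNA and 0.772% of male liver miRNA. miR-216-5p accounted for most of it, with 1177 RPM in testis, 9335 RPM in male brain and 154 RPM in male liver, and it was testis-high as a share, 7.72% against 4.48% and 0.772%. miR-217-5p, made close to miR-216 in vertebrate genomes, held 208 RPM in testis and 3176 RPM in male brain and was unlisted in male liver. miR-7-5p, a miRNA of endocrine and neural cells, held 601 RPM in testis and 4354 RPM in male brain and was unlisted in male liver, which put testis at least 61.2-fold above male liver. As a share miR-7-5p was testis-high, 3.94% against 2.09% in male brain. miR-375-3p, the islet miRNA of mammals, was unlisted in testis and held 42.6 RPM in male brain. Of the 5 arms 0 were testis-high on RPM and 2 as shares, beside 5.71% and 19% of all arms.

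Several widely expressed arms changed side with the scale. miR-16-5p, which slows the cell cycle in mammalian cells, held 609 RPM in testis, 3298 RPM in male brain and 200 RPM in male liver, or 3.99%, 1.58% and 1.01% of miRNA. miR-15-5p, with the same seed in its leading member, held 584, 4119 and 324 RPM, or 3.82%, 1.98% and 1.62%. Both lay between on RPM and were testis-high as shares. miR-21-5p held 801 RPM in testis and 814 RPM in male liver, a difference inside its counting interval (testis over liver 0.984, 95% exact interval 0.964 to 1.01), against 6399 RPM in male brain. miR-22-3p held 102.9 RPM in testis and 103.2 RPM in male liver (0.998, 0.940 to 1.06), and 234 RPM in male brain. Of the 15 arms in the list of broadly expressed miRNAs, 0 were testis-high and 8 testis-low on RPM (5.71% and 33.3% of all arms), and 5 and 3 were so as shares (19% and 12.4% of all arms).

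Arms outside those groups that were testis-high as shares included miR-193-3p, with 63.9 RPM in testis, 95.1 RPM in male brain and 10.3 RPM in male liver. The muscle miRNA miR-1-3p held 79.1 RPM in testis and 186 RPM in male brain and was unlisted in male liver, while its muscle partners miR-206-3p and miR-499-5p were unlisted in testis. As shares, testis was 9.17-fold above male brain for miR-193-3p (95% exact interval 8.58 to 9.80) and 5.82-fold for miR-1-3p (5.51 to 6.15). The retinal and choroid plexus miRNA miR-204-5p, at 38.5 RPM in testis and 517 RPM in male brain, was testis-high as a share only by 1.02-fold, with an interval of 0.952 to 1.09 that includes 1.

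The list for gonad and germline also held arms tied to germ cells and proliferation in other vertebrates. The family named miR-17-5p, a sum of miR-17 and its relatives miR-20 and miR-93, held 244 RPM in testis, 1961 RPM in male brain and 822 RPM in male liver. In testis 100% of it fell on 1 member, which held 93.75% in male brain and 96.0% in male liver. The family name does not say which relative that member is. From the related clusters, miR-19-3p held 23.7, 183 and 55.7 RPM, miR-25-3p 28.2, 131 and 38.2 RPM and miR-92-3p 45.2, 76.8 and 23.7 RPM. miR-92-3p alone of these was testis-high as a share, at 0.296% against 0.0369% and 0.119%. miR-34-5p, abundant in mammalian testis and in multiciliated cells, was unlisted in testis and in male liver. It held 155.4 RPM in male brain, at least 9.22-fold above testis on RPM. As a share the same quotient was 0.675, so no difference was shown on that scale, and the arm was undecided on both. Of the 12 arms of this list, the 2 miR-202 arms were testis-high on RPM and 5 were testis-low (5.71% and 33.3% of all arms). As shares 3 and 1 were so (19% and 12.4% of all arms).

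**Figure D3:**
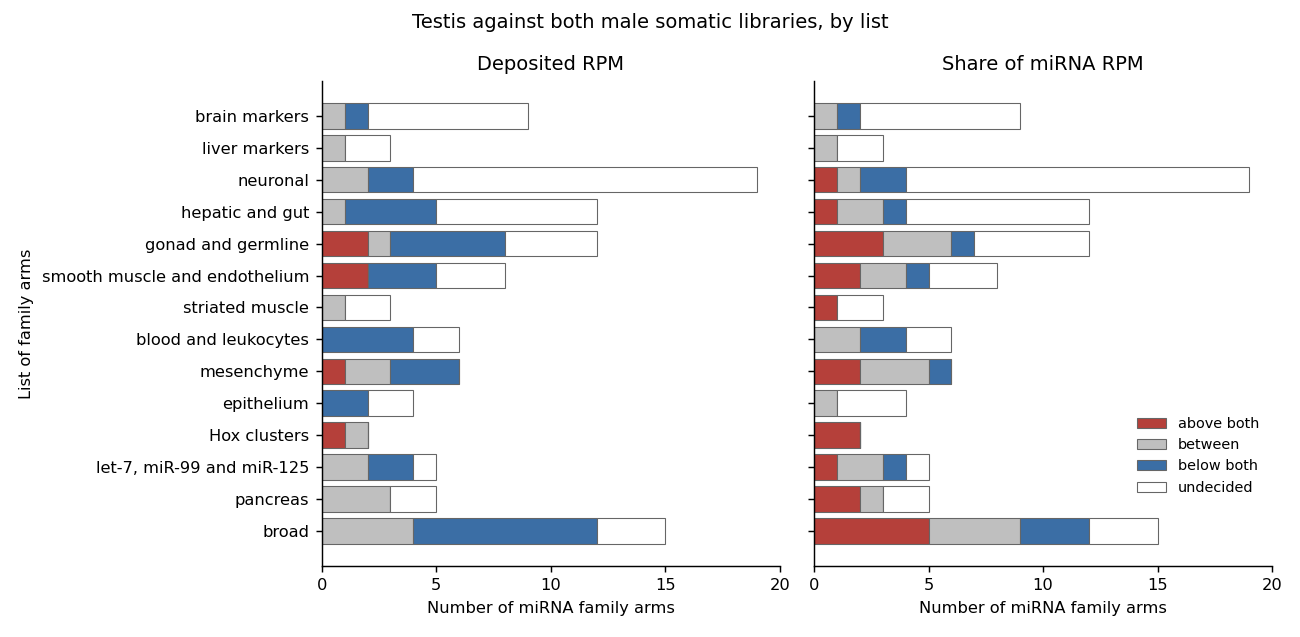
Number of family arms in each list that were testis-high (above both), between, testis-low (below both) or undecided, on deposited RPM (left) and on shares of miRNA RPM (right); a family arm can stand in several lists. In the gonad and germline list 2 of 12 arms are above both on RPM and 3 as shares. On both scales 15 of 19 neuronal arms are undecided, beside 45 of all 105 arms on RPM and 49 as shares.

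The arms furthest below both somatic libraries included the red cell pair miR-451-5p and miR-144-3p, as well as miR-101-3p and miR-103-3p. The red cell miRNA miR-451-5p held 13.9 RPM in testis, 554 RPM in male brain and 172 RPM in male liver, so that testis was 40.0-fold below male brain (95% exact interval 36.0 to 44.6) and 12.4-fold below male liver (11.1 to 13.9). Testis listed 1 sequence of this arm, against 5 in male brain and 3 in male liver. That sequence by itself held 215.7 RPM in male brain and 91.85 RPM in male liver, the latter 6.625-fold above testis. The cluster partner of miR-451-5p, miR-144-3p, was unlisted in testis and held 409 RPM in male brain and 147 RPM in male liver. In the same direction, miR-101-3p, which targets the Polycomb enzyme EZH2 in mammals, was unlisted in testis against 1328 RPM in male brain and 213 RPM in male liver. miR-103-3p, counted with the near-identical miR-107, affects insulin sensitivity in mice; it was unlisted in testis against 1542 and 147 RPM. By the sequences leading in male liver, male liver was at least 4.52-fold above testis for miR-101-3p and 5.01-fold for miR-103-3p. Those sequences differ from the printed ones, of which that of miR-101-3p held 13.3 RPM in male liver and that of miR-103-3p was unlisted there. The sterol-linked miR-33-5p was unlisted in testis and held 158 RPM in male brain and 67.1 RPM in male liver, testis-low on RPM and undecided as a share.

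Further testis-low arms were listed in all 3 libraries. For miR-221-3p male brain was 156.5-fold (95% exact interval 142.3 to 172.4) and male liver 5.80-fold (5.22 to 6.46) above testis. Testis listed 1 sequence of this arm, at 16.9 RPM, which by itself held 2014 RPM in male brain and 87.9 RPM in male liver. miR-30-5p held 14.3 RPM in testis, 360 RPM in male brain and 112 RPM in male liver, and only 1 of the 18 sequences of this family was listed in testis. The epithelial miR-200a-3p held 23.8, 184 and 108 RPM and was testis-low on RPM, but as shares it lay between. miR-451-5p, miR-144-3p, miR-101-3p, miR-103-3p, miR-221-3p and miR-30-5p stayed testis-low as shares. The 1 miR-30-5p sequence listed in testis, at 14.3 RPM there, 48.9 RPM in male brain and 22.6 RPM in male liver, lay between by itself as a share. For miR-144-3p, male brain was above testis as a share by at least 1.066-fold only. Among the 6 blood and leukocyte arms 4 were testis-low on RPM and 2 as shares, beside 33.3% and 12.4% of all arms, the leukocyte arm miR-142-3p holding 45.4 RPM in testis, 125.2 RPM in male brain and 61.7 RPM in male liver.

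Markers of the somatic organs were used to check the labels. The 9 brain marker arms summed to 112 RPM in testis, 78755 RPM in male brain and 66.2 RPM in male liver, or 0.737%, 37.8% and 0.332% of miRNA. In testis 7 of the 9 were unlisted, beside 53 of all 105 arms. The 7 were miR-9-3p, miR-9-5p, miR-124-3p, miR-137-3p, miR-138-5p, miR-153-3p and miR-219-5p. The glial and neuronal miR-338-3p made up most of the testis sum, with 102 RPM, beside 8619 RPM in male brain and 48.8 RPM in male liver. The neuronal miR-128-3p was at 10.3 RPM in testis, next to the minimum, and 6563 RPM in male brain, 635-fold higher (95% exact interval 563 to 719). Testis listed 1 sequence of miR-128-3p and male brain 26, and in male brain that same sequence held 33.1% of the arm. For miR-9-3p, with 35282 RPM the most abundant arm of male brain, male brain was at least 1991-fold above testis, and for miR-153-3p, with 15491 RPM, at least 987-fold. Over the longer neuronal list 15 of 19 arms were unlisted in testis, beside 53 of all 105. The 4 listed were miR-7-5p, miR-125-5p, miR-128-3p and miR-181-5p. Of the 19, 0 were testis-high and 2 testis-low on RPM (5.71% and 33.3% of all arms). As shares 1 and 2 were so (19% and 12.4% of all arms).

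The 3 liver marker arms summed to 26.9 RPM in testis, 9096 RPM in male liver and nothing listed in male brain. miR-122-5p, the hepatocyte miRNA, held 2011 RPM in male liver and was unlisted in testis, at least 126.5-fold lower, and miR-192-5p held 92.01 RPM in male liver and was likewise unlisted. miR-194-5p was the only liver marker listed in testis, with 26.9 RPM against 6993 RPM in male liver, 260-fold higher (95% exact interval 241 to 281). The labelled somatic organs held their defining arms. Testis held the miR-202 pair that neither somatic library listed, but these values had already given its testis-high call and are no separate check. Nor does the pair tell testis from ovary, which held 2280 RPM of the 5p arm and 244.9 RPM of the 3p arm. Testis held 1256 and 53.8 RPM.

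Exact sequences need no summing over paralogues. Of 971 sequences 30 were above both somatic libraries on RPM (3.09%) and 105 below both (10.8%), while as shares 102 were above (10.5%) and 23 below (2.37%). At 2-fold the counts were 23 (2.37%) and 34 (3.50%) on RPM and 69 (7.11%) and 2 (0.206%) as shares, and at 4-fold 13 (1.34%) and 9 (0.927%) on RPM and 30 (3.09%) and 0 as shares. The 30 included all 25 listed isoforms of the 6 testis-high arms, and the other 5 came from miR-199-3p, miR-217-5p, miR-22-3p, miR-24-3p and miR-92-3p, 1 each. Testis listed 18 assigned sequences that no male somatic library listed, among them every form of miR-202 and miR-196-5p. Their call follows from the minima, so it adds nothing to the call of the arm. For arms with at least 50 RPM in both libraries, the leading sequence was the same in testis and male brain for 18 of 26 and in testis and male liver for 15 of 19. Where it differed, the pairs of miR-125-5p, miR-17-5p, miR-181-5p and miR-99-5p differed in length at the 3′ end. For miR-130-3p the sequence leading in testis began 1 base later and so carried another seed. That sequence held 32.3% of the arm in testis, where 57.8% of the arm began at the first base of the form leading in male brain. The miR-23-3p pair differed in length and in sequence, and the miR-27-3p pair of testis and male liver by 3 substitutions. For miR-24-3p and miR-29-3p the leading sequences differed by 1 substitution outside the seed, and they are printed in pairs to show it.
miR-24-3p, leading in testis: tGGCTCAGttcagcaggaaccg
miR-24-3p, leading in both somatic libraries: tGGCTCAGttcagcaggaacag
miR-29-3p, leading in testis and male liver: tAGCACCAtttgaaatcggtgtt
miR-29-3p, leading in male brain: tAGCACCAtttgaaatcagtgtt
Counted from 1 at the 5′ end, with the base of the sequence leading in testis first, the substitutions are C21A for miR-24-3p and G18A for miR-29-3p.

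The testis form of miR-24-3p held 81.0 RPM in testis, 70.4 RPM in male brain and 51.4 RPM in male liver, while the other form held 76.1, 1057 and 272 RPM. Of the reads of these 2 sequences, the testis form took 51.6% in testis (95% exact interval 50.02 to 53.14), 6.24% in male brain (5.93 to 6.56) and 15.9% in male liver (14.96 to 16.82). The testis form was thus above both somatic libraries by itself, although the family as a whole, at 181.5, 1626 and 453 RPM, was testis-low. In ovary the same form took 71.5% (70.8 to 72.3). For miR-29-3p the form leading in testis took 85.2% of its pair in testis, 80.1% in male liver and 45.3% in male brain. The form leading in male brain, at 5976 RPM there, was unlisted in female brain. Whether its row is missing from that library was not tested, so the split is not shown to be a trait of brain. The origin of the forms was not tested, since no genome was used.

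The miR-15-5p family was also made up differently. The member printed next, which shares its seed with the leading member but differs downstream, was chosen for its larger part in testis.
miR-15-5p, member richer in testis: tAGCAGCAcatcatgttttgta
With the sequences clustered to it, this member took 19.7% of the family in testis, 3.71% in male brain and 7.05% in male liver. It held 115, 152.9 and 22.8 RPM. The leading member of the family held 61.2%, 86.2% and 75.4%. For miR-23-3p the leading sequence of testis was 100% of its pair with the sequence leading in male brain, which was unlisted in testis, and 93.3% in male liver. Shares within a family cover listed sequences only, so families near the minimum show fewer isoforms.

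**Figure D4:**
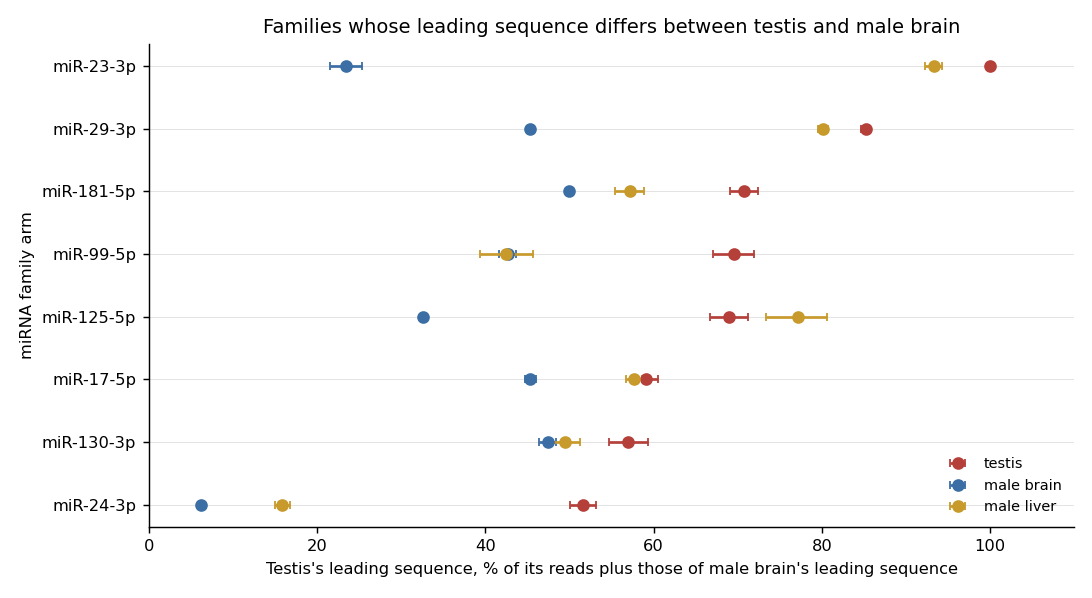
Share of the reads of a pair of exact sequences that fell on the sequence leading in testis, in percent, for the 8 family arms whose leading sequence differs between testis and male brain; points are single libraries and bars 95% exact intervals for counting error. By the choice of families testis lies above 50% and male brain below it; male liver lies near testis for miR-29-3p (80.1%) and near male brain for miR-24-3p (15.9%).

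Grouped by seed, the 5 leading seeds of each library, ranked in that library, held 55.0% of miRNA in testis, 44.7% in male brain and 65.3% in male liver. The libraries listed 65, 170 and 80 seeds, a number that depends on the minimum of each file. The let-7 seed GAGGTAG held 27.6% in testis, 13.5% in male brain and 7.59% in male liver. The seed AGCAGCA, shared by miR-15-5p and miR-16-5p, held 7.08%, 3.29% and 2.35%. By length, sequences of 22 nt held 54.3% of assigned reads in testis, 52.8% in male brain and 34.4% in male liver, where 21 nt led with 44.1%.

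The female libraries were not used to choose these arms, so ovary against female brain and female liver gave the same comparison in other samples. All 6 arms testis-high on RPM were also above both female somatic libraries in ovary, which is 100% of the testis set and 54.5% of the 11 ovary-high arms; 10.3% of all arms measured in females were ovary-high. Of the 35 testis-low arms 13 were ovary-low (37.1% of the testis set and 76.5% of the 17 ovary-low arms, at 15.9% of all arms). As shares, 17 of 20 testis-high arms were ovary-high (85.0% and 65.4%, at 24.3% of all arms) and 6 of 13 testis-low arms were ovary-low (46.2% and 66.7%, at 8.41%). The 3 share-high arms of testis that were not ovary-high were miR-7-5p, miR-10-5p and miR-204-5p. miR-7-5p stood at 601 RPM in testis and 20.2 RPM in ovary, miR-10-5p at 77.0 and 25.2 RPM, and miR-204-5p at 38.5 RPM in testis and unlisted in ovary. Of the 50 arms listed in both gonads, 46 lay on the same side of the higher somatic library of their own sex on RPM, 40 below it and 6 above. The other 4 were below it in testis and above it in ovary. The miRNA sum was 208337 RPM in male brain against 15257 RPM in testis, and 229335 RPM in female brain against 23585 RPM in ovary. How many arms would lie on the same side from these sums alone was not tested. As shares 41 did, 24 below and 17 above.

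**Figure D5:**
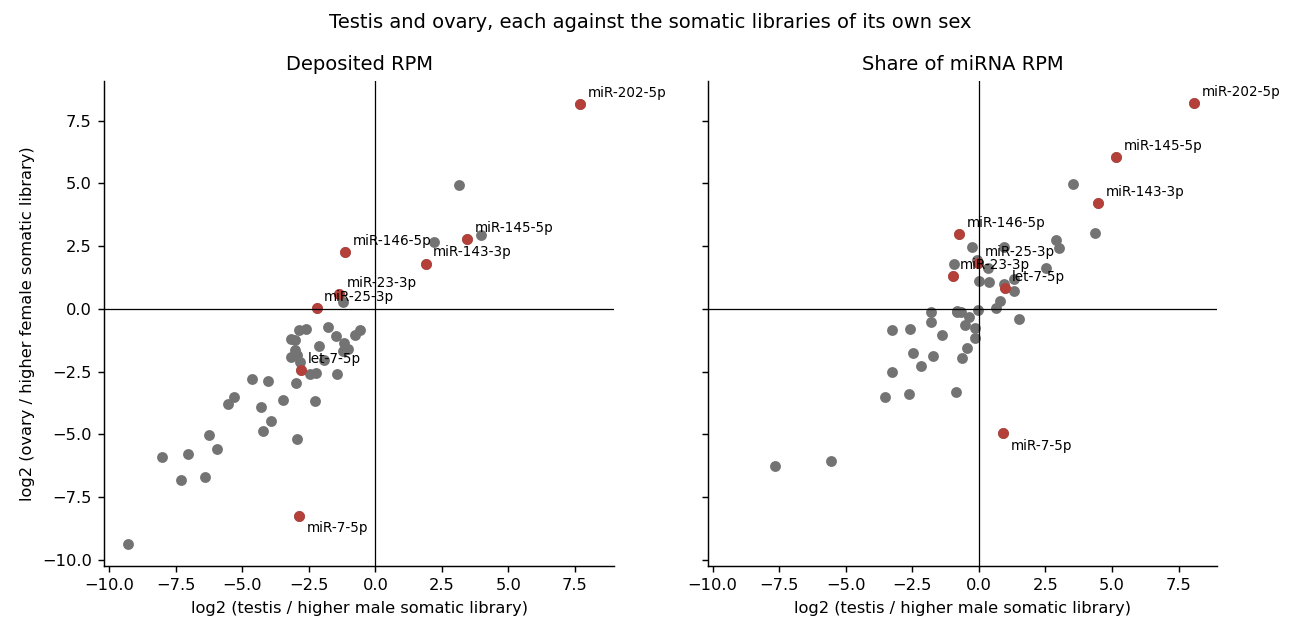
Log2 ratio of testis to the higher of male brain and male liver (x) against log2 ratio of ovary to the higher of female brain and female liver (y) for the 50 family arms listed in both gonads, on deposited RPM (left) and on shares of miRNA RPM (right); unlisted somatic values are set to the library's minimum. Red points are the arms labelled by name; the miR-202, miR-143 and miR-145 arms are high in both gonads, and miR-7-5p lies well below other arms of a similar testis ratio.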

How the data were processed

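Per the labels, libraries were made from gel-purified RNA shorter than 30 nt of DNase-treated pooled tissue, with 12 PCR cycles after adapter ligation. CASAVA 1.7.0 is named per the submitters' processing notes, while trimming and any aligner are not given here. The files deposited by the authors list exact sequences with a length and an expression value. No header names a unit. The deposited values were taken as RPM made by the authors, because 100.0% of them were whole multiples, within 0.02 reads, of 1 read in a fixed library total, which served as depth. That total was sought on a per-million scale. The fit shows a fixed step per read but cannot show the unit, so RPM, depth and percent of reads rest on that assumption.

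No reference of miRNA sequences was used. Sequences of all 6 libraries were clustered from the most abundant one (shift of at most 3 nt, at most 2 mismatches, overlap of at least 17 nt). Clusters were named from the leading sequence's bases 2 to 8 and 13 to 17, by a list of signatures for 109 family arms written by hand after the sequences had been seen, from general knowledge of conserved miRNAs. Paralogues were summed (miR-17-5p includes miR-20 and miR-93, miR-99 includes miR-100, miR-103 includes miR-107, miR-130 includes miR-301, miR-192 includes miR-215 and miR-200a includes miR-141), and 1076 of 1571 sequences were assigned to 108 arms. Names therefore rest on short matches, and unassigned sequences can include miRNAs. Members, lists and tests were chosen with earlier results of these data known. Ratios of testis to each somatic library carry 95% exact conditional binomial intervals, and shares within a family carry exact binomial intervals. Without molecular identifiers the intervals cover counting error only, and share ratios treat the miRNA sum as fixed. The named arms were the 12 highest in testis, the 10 with the largest ratio to the higher and the 10 with the smallest ratio to the lower somatic library, with at least 50 RPM, and examples from the lists. miR-214-3p, miR-92-3p, miR-25-3p, miR-204-5p and the paired or member sequences of miR-15-5p, miR-23-3p, miR-27-3p, miR-29-3p and miR-130-3p were named after their values were seen. Alternatives were the scale, the fold, the minimum, the filter on low values and the sequences summed. The scripts were tested on simulated data. Python 3.11.15, pandas 2.3.3, NumPy 2.4.6, SciPy 1.17.1 and matplotlib 3.10.9 were used.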

Additional observations from a re-analysis of the deposited data

Results flagged for a closer look

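For 3 arms testis and ovary fell on opposite sides of the somatic libraries of their own sex on deposited RPM, a difference that was not tested, with 1 library for each. miR-146-5p, a miRNA of immune signalling, was below both in testis at 69.4 RPM (male brain 118 RPM, male liver 151.5 RPM) and above both in ovary at 399 RPM (female brain 84.1 RPM, female liver 39.3 RPM). miR-23-3p was below both in testis at 68.4 RPM and above both in ovary at 379 RPM (female brain 251.8 RPM, female liver 118.0 RPM). miR-25-3p was below both in testis at 28.2 RPM and above both in ovary at 158 RPM, against 34.7 RPM in female liver and a level close to its own in female brain. The gap to female brain was within counting error (ovary over female brain 1.02, 95% exact interval 0.976 to 1.07). As shares of miRNA all 3 lay between the male somatic libraries.

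Of the 151 unassigned sequences listed in testis, 79, summing to 1333 RPM, were listed in no male somatic library, beside 18 of the 170 assigned ones. Of these unassigned sequences 68, with 1105 RPM, were listed in none of the other 5 libraries. Of the 79, 65 began with T and 47 were 23 nt long, the longest length listed. Among all 151 these counts were 88 and 65, and among the 170 assigned sequences 118 and 36. Their origin was not tested.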

How the results depend on the processing

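The 6 testis-high arms on RPM became 20 as shares of miRNA and 13 with median-of-ratios scaling, and 22 arms were above male liver alone. The 35 testis-low arms became 13 as shares, 22 with median-of-ratios scaling, 16 at 2-fold and 8 at 4-fold, and 84 were below male brain alone. Among exact sequences, the 30 testis-high became 102 as shares, 13 at 4-fold and 14 with at least 50 RPM in the highest library, and the 105 testis-low became 23 as shares, 34 at 2-fold and 9 at 4-fold. Of the testis-high and testis-low arms pooled, 46.3% were called the same way in ovary on RPM and 69.7% as shares. Other settings (unlisted taken as 0, 1 common minimum, no mismatch allowed) kept the counts of arms within 1.5 times. The log2 ratio to the lower somatic library changed sign as shares for miR-146-5p (3.0), miR-17-5p (0.76), miR-200a-3p (0.82), miR-21-5p (0.77), miR-22-3p (2.59), miR-24-3p (0.61) and miR-26-5p (0.59). The lower library was chosen anew on each scale. For all of these but miR-146-5p it was male liver on RPM and male brain as shares. Against male liver alone, the share ratio of testis stayed below 1 for miR-17-5p (0.3875), miR-200a-3p (0.2883), miR-24-3p (0.5227) and miR-26-5p (0.5673). That ratio was above 1 for miR-21-5p (1.285) and miR-22-3p (1.303). With median-of-ratios scaling the log2 ratio to the lower library changed sign for miR-146-5p (1.82), miR-21-5p (0.24) and miR-22-3p (1.40). With the leading sequence alone it did so for miR-21-5p (0.10), miR-22-3p (0.33) and miR-103-3p (0.74), whose leading sequence is unlisted in testis and male liver, so that the value is the ratio of the minima. The cause of the other changes was not tested. What could be seen in testis was limited by the listing minimum of its file, 10.03 RPM. No paired analysis was possible because each organ has 1 library per sex and the labels give no replicate numbers.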
